A study of Xenopus laevis with 13 samples.

Results

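A set of 200 microarray probes was examined whose signal was first called well above background in Xenopus laevis tadpoles at stage 40. They were taken from 43803 probes on each array that were not controls. A probe qualified when the scanner software did not call its spot well above background on any of the 12 arrays from the unfertilized egg to stage 35, and did call it so at stage 40. These calls were made for 753 probes, and the 200 with the highest signal at stage 40 were kept. The members were thus selected on these calls and on the stage 40 signal, and both are given as a description, with no test. The probes represent 177 GenBank accessions of the 28256 on the array. In the deposited files a probe has an accession but no gene name, and 0 of the accessions were found in the reference gene table, so no gene is named here.

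Whole eggs and whole embryos of X. laevis, the African clawed frog, were collected at 13 points. These were the unfertilized egg, the two-cell stage, the 16-cell stage, stages 8 and 9 (blastula), 10.5 and 12 (gastrula), 15 and 20 (neurula), 25, 30 and 35 (tailbud) and 40 (tadpole). The labels give no treatment and no strain, and by the labels the groups differ only in stage. Embryos were dejellied and grown in diluted Steinberg's solution (a saline for amphibian embryos), and total RNA was labeled with Cy3, a green fluorescent dye, and hybridized to 1 one-color Agilent array per stage. The stage was taken from the title, source name and stage label of each sample, which name the same stage. The description of 8 samples names another stage, and that of the stage 40 sample names stage 35.

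In frog development, stage 40 lies after hatching, when the swimming larva has a beating heart and circulating blood but still lives on yolk. The rudiments of liver, pancreas, gut and lung are by then being shaped and begin to express the products of their mature cells, and in the eye the lens and the light-sensing cells differentiate. Genes of such late cell types are transcribed in a small part of the body, so that in RNA from a whole larva their signal is diluted by all other tissues. In such bulk RNA, fewer cells of a type and less RNA per cell cannot be told apart. X. laevis also carries 2 related sets of chromosomes from an ancient hybridization, so that many genes have a closely related copy.

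The stage 40 array was the only array on its slide, and the 12 earlier arrays lay on 3 others, so slide and stage cannot be told apart. On this array 79.5% of the probes were called well above background, against 59.0% to 76.4% on the 12 earlier arrays. The lowest signal that received this call was 13.7 intensity units at stage 40, against 15.2 to 23.3 on the earlier arrays. The spread of the negative-control spots (SD, as given in the file headers) was 2.38 at stage 40, against 2.87 to 4.33 on the earlier arrays. Dim spots could thus be called at a lower signal at stage 40 than on any earlier array, and the part of this difference in the 753 calls was not tested. Of the 753 probes, 423 had a stage 40 signal above 23.3, the highest of the earlier limits. All 200 members did, since the dimmest had 43.7. No member was flagged as a non-uniform or outlying spot on any array. No spot was saturated.

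By the scanner software's calls, stage 40 added more newly detected probes than each of the 3 tailbud stages, but not when a common limit was set for all arrays. Of 6855 probes not called well above background on any earlier array, 753 (11.0%) were called at stage 40. The count was 664 of 8313 (7.99%) for stage 25, 570 of 7649 (7.45%) for stage 30 and 224 of 7079 (3.16%) for stage 35. After the egg, the count was higher only at the two-cell stage (3713, 20.7%) and at stages 10.5 (1964, 14.7%), 12 (1067, 9.38%), 15 (1207, 11.7%) and 20 (792, 8.70%). The shares at stages 12 and 20 lay below the 11.0% of stage 40. With a common limit at a normalized signal (log2 relative to the 75th percentile of the array) of -5.42, the highest of the 13 arrays' limits, the counts were 598 (6.09%) for stage 25, 473 (5.13%) for stage 30, 313 (3.58%) for stage 35 and 439 (5.21%) for stage 40. By count, the order of stage 40 and stages 25 and 30 thus turned with the limit. By share it turned for stage 25 only, since 5.21% at stage 40 still lay just above 5.13% at stage 30. By the software's calls, among all 43803 probes, those first detected at stage 40 made up 1.72%. A further 6102 probes were not called on any of the 13 arrays. With 1 array per stage, no replicate error can be given for these counts and no test between stages was possible.

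The members covered a wide range of signal at stage 40, and a few stood far above the rest. The processed signal, which is the background-corrected intensity of a spot on a linear scale, had a median of 93.6 over the 200 members at stage 40, with a range of 43.7 to 4827. At stage 35 the median was 10.3 and the range 4.23 to 27.3. The lowest member signal at stage 40 therefore lay above the highest at stage 35, as the choice of members by stage 40 signal would favor. For comparison between arrays, each log2 signal was expressed as its distance from the array's 75th percentile, here called the normalized signal. On this scale 4 members lay above 0 at stage 40, that is, above the 75th percentile of all probes. Another 3 lay between -1 and 0, and 32 in all lay above -3. The members ranked 198, 199 and 200 had signals of 43.9, 43.8 and 43.7, and the 3 probes just outside had 43.7, 43.6 and 43.5, so the last places on the list are arbitrary.

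Since no member was well above background at stage 35, the increase is given as a lower limit only. The limit divides the stage 40 signal by the higher of the lowest signal called well above background at stage 35 and the probe's own stage 35 signal, after normalization. The median limit over the members was at least 3.83-fold. For 178 of the 200 the limit was 2-fold or more, against 4.69% of all 43803 probes (2055). It was 4-fold or more for 97, 8-fold or more for 42, 16-fold or more for 17, and 128-fold or more for 4. Members were selected for a high stage 40 signal and no call at stage 35, so these counts largely follow from the selection. Set against the highest of the 12 earlier arrays in the same way, the median limit was 2.37-fold and the smallest was 1.11-fold. Among the 553 probes first detected at stage 40 that were not kept, the median ratio calculated in this way was 0.894, so that most of them showed no increase beyond the stage 35 limit. The limits compare a single array with a single array and have no replicate check.

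The highest stage 40 signal was that of a probe for accession AB045599. Its normalized signal was 1.51 at stage 40 (4827 intensity units), against -7.20 at stage 35 (10.2 units). Over the 12 earlier arrays it ranged from -9.08 to -7.20 with a median of -8.16, none of them well above background. The stage 40 array stood alone, at least 204-fold above stage 35 and at least 122-fold above the highest limit of the earlier arrays. The array carries another probe for this accession, which the selection did not take. That probe had 2.27 at stage 40 (8142 units), against -6.82 at stage 35 (13.3 units, not well above background), a limit of at least 345-fold. It was left out because of 1 call at the two-cell stage, at 25.4 units and a normalized signal of -6.30. Both probes of AB045599 were therefore low from the 16-cell stage to stage 35 and high at stage 40.

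Accession U41839 was the only one with 2 probes among the 10 brightest members. The first, ranked 3, had a normalized signal of 1.00 at stage 40 (3375 units) and -7.88 at stage 35 (6.38 units). Over the earlier arrays it ranged from -8.72 to -7.26, with a median of -7.95. The second, ranked 5, had -0.02 at stage 40 (1665 units) and -7.95 at stage 35 (6.07 units), and its earlier values ranged from -8.73 to -7.33 with a median of -8.15. The lower limits were 143-fold and 70.5-fold over stage 35. Neither probe was even significantly above its local background at stage 35, and the second was so on 0 of the 12 earlier arrays. Of the 7 members above -1, these were the only ones without such a signal at stage 35.

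The other members above the 75th percentile at stage 40 were those ranked 2 and 4. The member ranked 2 had 1.12 at stage 40, against -6.40 at stage 35 (3679 and 17.8 units), a limit of at least 156-fold. The other probe of its accession had 1.73 at stage 40 and -5.79 at stage 35 (5614 and 27.2 units), and was called well above background at stages 10.5 and 35 as well as 40. The member ranked 4 had 0.84 at stage 40, against -6.71 at stage 35 (3037 and 14.3 units), at least 128-fold. The other probe of its accession had 0.96 at stage 40 (3304 units) and was just above the limit at stage 35, at -5.59 (31.3 units). Before that it lay at -7.46 at stage 20, -7.03 at stage 25 and -6.42 at stage 30, all not well above background. The member itself had -7.88, -8.25 and -7.86 at these stages. Values near background have no order, so neither series is read as a trend. In all 4 of these accessions, then, both probes were not well above background at stage 30 and reached between 1665 and 8142 units at stage 40.

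Members ranked 6 to 10 had lower limits between 28.9-fold and 66.3-fold over stage 35. The member ranked 6, whose accession has no other probe, had -0.11 at stage 40 and -6.29 at stage 35. The member ranked 7 had -0.58 at stage 40 and -7.60 at stage 35. The limit had a median of 10.2-fold over ranks 1 to 50, 5.31-fold over ranks 51 to 100, 2.88-fold over ranks 101 to 150 and 2.08-fold over ranks 151 to 200, as follows from the ranking by signal.

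Other probes for the same accessions, each a separate spot, were examined for support. Of the 177 accessions, 59 had 1 probe on the array, 117 had 2 and 1 had 3. Taking the highest-ranked member of each accession as its index left 119 other probes of 118 accessions. Of these, 23 were members themselves, so that their calls and stage 40 signals were used by the selection, and 96 were not members. The files used here do not give the probe sequences, so whether the probes of an accession overlap, or bind RNA of a related gene copy, was not tested.

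Most of the other probes had a higher signal at stage 40 than at stage 35. Of the 119, 102 (85.7%) were well above background at stage 40, against 79.5% of all probes, so this call alone says little. As for the members, the stage 35 signal was replaced by the lowest signal called on that array where it was lower. Above this limit by at least 2-fold, and well above background at stage 40, were 80 of 119 (67.2%), against 4.69% of all 43803 probes (2055) and 4.38% of the 30692 probes of other accessions with more than 1 probe. Among the 96 that were not members the count was 59 (61.5%). All 59 were among the 69 other probes that had been called on an earlier array. The 11 non-members first detected at stage 40 and the 16 probes never called could not count, by the selection and by the call required. When the stage 35 signal was used as given, without the limit, the count was 95 of 119 (79.8%), against 6.10% of all probes (2670). This count includes ratios to stage 35 signals near background, where values have no order.

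None of the 119 was lower at stage 40 by at least 2-fold, 0 against 2.60% of all probes (1138). Such a fall required a call well above background at stage 35. Only 46 of the 119 had this call, against 73.9% of all probes, and the rest could not count as lower. The shares of falling probes are therefore not comparable. Over the 102 other probes well above background at stage 40, the lower limit had a median of 1.98 on the log2 scale (3.94-fold), against -0.04 over the 34830 of all probes with this call. Over the 79 of them that were not members, the median was 1.86. Probes of 1 accession share their source and both stages are single arrays, so these shares carry no test.

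Detection at stage 40 was new for only some of the other probes. Of the 119 other probes, 34 (28.6%) were also first called well above background at stage 40, against 1.72% of all probes. The share was 1.11% over the probes of other accessions with more than 1 probe, which by definition include no member. Of these 34, 23 were members, which met the selection themselves, so their calls are no separate support. The other 11 came from the 96 other probes that were not members. None of the 11 had a lower limit of 2-fold or more over stage 35 (0 of 11). This follows from the selection, since the highest limit among the 553 first detected probes not kept was 1.85-fold. A further 69 (58.0%) had been called on an earlier array, and 16 (13.4%) were not called on any array. Of all 43803 probes, 6855 had no call on an earlier array, and 6102 had none on any array. Earlier calls were thus less common among the other probes than among all probes, and a lack of any call was about as common. The 69 belonged to 69 accessions, for which another probe had thus been called at least once before stage 40. Of these 69 probes, 22 were first called in the egg or at the two-cell stage, 4 at stage 25, 9 at stage 30, 12 at stage 35, and the remainder between the two-cell stage and stage 25. The name "first detected at stage 40" therefore holds for the 200 probes by the way they were chosen, and not for all of their accessions.

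The earlier calls varied in number. Of the 69 probes, 24 had a call on 1 earlier array only, 9 of them before stage 30, 3 at stage 30 and 12 at stage 35, directly before stage 40. The signal of these single calls lay a median of 0.66 (log2) above the lowest signal called on the same array, and 16 of the 24 lay within 1. At stage 35, 2.61% of the 153 negative-control spots also had the call, against at most 1.31% on any other array. Whether a single call marks the start of expression was not tested. Another 20 were called on 2 or 3 earlier arrays, 21 on 4 to 11, and 4 on all 12. Of the 69, 68 were well above background at stage 40, 59 (85.5%) had a lower limit of 2-fold or more over stage 35, and the median limit over the 68 was 2.1 on the log2 scale. For the 46 that were well above background at both stages the fold is measured on both sides, and its median was 2.03 on the log2 scale, with 39 of the 46 (84.8%) at least 2-fold higher.

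In some accessions the probes did not behave alike. Of the 119 other probes, 17 were not well above background at stage 40, 16 of them on no array, although the index member was by selection. For CK796539, the member (ranked 130) had a normalized signal of -4.66 at stage 40 (66.9 units) and -8.43 at stage 35 (4.36 units), and its earlier values ranged from -9.15 to -7.73. The other probe of this accession was well above background on all 13 arrays. It had -5.03 at stage 40 and -4.33 at stage 35 (52.0 and 74.8 units), reached its highest value, -2.28, at stage 15, and was at its lowest, -6.21, at stage 8. It was lower at stage 40 than at stage 35 by 0.69 on the log2 scale while the member was higher. Of the 46 other probes well above background at both stages, it was the only one lower at stage 40. The 16 probes never called included the other probes of the members ranked 14 and 16. These members had 455 and 439 units at stage 40.

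The share of other probes with a higher signal was smaller at lower ranks, a difference that was not tested and that the selection partly fixes. Other probes first detected at stage 40 but not kept had limits of at most 1.85-fold, so they could not reach 2-fold. Other probes that were members rank below their index member, so their limits are also small near the end of the list. A lower limit of 2-fold or more over stage 35 was found for 28 of 33 other probes (84.8%) of index members ranked 1 to 50, and for 25 of 28 (89.3%) for ranks 51 to 100. For ranks 101 to 150 the number was 16 of 26 (61.5%), and for ranks 151 to 200 it was 11 of 32 (34.4%). Without the stage 35 limit the last count was 20 of 32. The median limits over probes well above background at stage 40 were 3.17, 2.28, 1.61 and 0.99 (log2) in the order of the ranks. Without the other probes that were members, the counts were 18 of 23, 18 of 21, 12 of 22 and 11 of 30. These totals still include the first detected probes that were not kept. The probes never called were 8 of 32 for ranks 151 to 200, against 3 of 33 for ranks 1 to 50.

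In 23 accessions 2 probes were members. Their lower limits over stage 35 differed by a median of 0.45 on the log2 scale, by less than 1 in 18 of the 23 accessions, and by 2.11 at most, in the pair ranked 17 and 95 (18.0-fold and 4.18-fold). Both probes of each pair met the same selection, and limits that share the stage 35 floor differ only in the stage 40 signal that the selection used, so these values are a description only.

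A weaker call of the scanner software showed that many members had some signal before stage 40. This call, positive and significant, requires only that a spot be significantly above its local background. It was given to 30 members (15.0%) in the egg, to 22.0% to 28.5% of them from the two-cell stage to stage 15, and then to 64 (32.0%), 72 (36.0%), 115 (57.5%) and 148 (74.0%) through stages 20, 25, 30 and 35. Among the 6102 probes that were never well above background the share was 18.9% in the egg, 23.2% to 34.4% from the two-cell stage to stage 15, and then 27.5%, 24.8%, 37.4% and 19.9% through stages 20, 25, 30 and 35. The members thus had the call more often than those probes at stages 20 to 35 and less often or about as often before, which was not tested. The 553 first detected probes that were not kept had the call more often than the members on each of the 12 earlier arrays, among them 34.9% in the egg, 55.7% at the two-cell stage, and 63.7%, 80.5% and 76.1% through stages 25, 30 and 35.

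The members differed in this weaker call at the last stages before 40. At stage 35, 52 members did not have the call, and their median limit was at least 4.67-fold. Another 50 had it at stage 35 and not at stage 30, with a median limit of 4.76-fold, and 98 had it at both stages. Within these 98, 57 also had it at stage 25, with a median limit of 2.88-fold, and 37 of those at stage 20 as well, with 3.27-fold. On none of the 12 earlier arrays was the call given for 18 members, ranked between 5 and 197, whose median limit was 3.38-fold, and on all 12 it was given for 7. The median limit was thus lower for the 98 than for the 52 or the 50, but had no single order with the number of stages that had the call. A call missing at stage 35 could be present before, as for the member ranked 9, which had it on 7 earlier arrays, so these groups do not give the time at which the signal began. The call shares its spots with the selection, and the differences between these groups were not tested.

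Compared with probes first detected at the tailbud stages, those of stage 40 had limits close to those of stage 25 and above those of stages 30 and 35. The same selection of 200 was made at each stage, with the preceding array as the comparison. The median lower limit was 3.92-fold for stage 25, 2.98-fold for stage 30, 2.37-fold for stage 35 and 3.83-fold for stage 40. Over the other probes of the same accessions that were well above background, the median lower limit over the preceding array was 1.64 (stage 25), 1.35 (stage 30), 0.81 (stage 35) and 1.98 (stage 40) on the log2 scale. Over all probes with this call it was between -0.04 and 0.00. Other probes first called at the same stage, with members not left out, made up 37.2%, 35.2%, 12.0% and 28.6% of the total, in the same order. At stage 35 only 224 probes qualified, so nearly all were taken there, whereas 200 of 753 were taken at stage 40. Stages 25, 30 and 35 lay on the same slide as the array before them and stage 40 did not, and no test between stages was possible.

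The position of the members on the stage 40 array was also examined. In 4 equal blocks of rows they numbered 48 (24.0%), 48 (24.0%), 59 (29.5%) and 45 (22.5%), against 24.7%, 25.3%, 25.3% and 24.7% of all probes. The brightest spot within the surrounding 5 rows and 3 columns had a median signal of 11180 for the members and 11110 for all probes, and the median local background was 30.0 for both. Members were thus found in all 4 blocks of rows and beside neighbors of about the same brightness as other probes.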

How the data were processed

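Total RNA from whole eggs or embryos was hybridized to 1 one-color Agilent Frog 4x44k array per stage. The authors deposited the scanner output of 13 arrays, in which Agilent Feature Extraction 10.7.3.1 gives a background-corrected intensity for each spot and detection calls. Near background the software puts a small positive value in place of the signal, so such values have no order. The deposited series table holds the same intensity (587860 of 587860 values identical).

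Of 45220 spots, 1417 controls were left out, and each of 43803 probes was present as 1 spot. The 75th percentile of an array's log2 intensity was subtracted from each value, after the study's methods, and the floor at 1 applied to 0 values. Well above background and positive and significant are the software's calls. The members were selected, ranked and counted in Python 3.11.15, using pandas 2.3.3, scipy 1.17.1 and numpy 2.4.6. The selection steps were run on the data with 200 planted probes as the only candidates. Their recovery was fixed in advance, so it checks the computation and not the rule. Normexp used limma 3.58.1 in R 4.3.3.

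Ranks order spots by signal, which also depends on the probe, and do not order genes by expression. With 1 array per stage no test was possible, and the number of arrays limits the precision. Members and lists were chosen with earlier results of these data known. The planned gene lists (organs of the tadpole) and the rule to name the brightest named members could not be applied without gene names. At most 4 accessions were to be named then. AB045599 and U41839 were named as the brightest and the brightest with 2 members, and CK796539 for its unlike probes, after their values were seen. The alternatives were other detection calls, scalings, numbers of members and arrays left out, and for the limits and counts of other probes, and for the common limit at each stage, all alternatives were chosen after seeing the data.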

Additional observations from a re-analysis of the deposited data

How the results depend on the processing

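The number of probes first detected at stage 40 depended on the detection call and much less on single earlier arrays. It was 753 with the call well above background, 253 with the call positive and significant, 439 with a common limit on the normalized signal, and 342 when the stage 40 signal had to lie 1 (log2) above the lowest called. Leaving out each of the 12 earlier arrays in turn gave 760 to 911, the last without stage 35. Of the 200 members, 200 were kept after median scaling, quantile normalization and scaling to 7 of 10 spike-in probes, which do not reorder the probes of an array, and 181 with normexp and an offset of 50. Averaging the probes of an accession kept 121. It removes accessions with an earlier call on another probe, and it ranks the rest by their mean normalized signal.

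The median lower limit over stage 35, 3.83-fold, was 3.65-fold after median scaling, 3.47-fold under quantile normalization, 4.42-fold with spike-in scaling and 1.69-fold with normexp, whose offset raises dim values. It was 2.37-fold against the highest earlier array, and 6.87-fold, 1.83-fold and 1.08-fold over the first 100, 400 and 753 probes, in which dimmer probes enter. Of the other probes of the same accessions, members included, 28.6% were first detected at stage 40. This share was 12.6% with the call positive and significant, 71.4% when the normalized signal at stage 40 had to be 1 (log2) above all earlier arrays, and 14.3% over the 753 probes. Over the first 100 and 400 it was 31.15% and 23.43%. The first 100 are part of the 200 members and the first 400 contain them, so these shares are not independent. The median lower limit of the other probes well above background at stage 40, 1.98 (log2), was 1.91 after median scaling, 2.19 with spike-in scaling and 0.99 with normexp, and 1.98 under quantile normalization. It was 1.86 without members, 2.03 for probes well above background at both stages, 2.1 for those called before stage 40, and 2.54, 1.18 and 0.66 over the first 100, 400 and 753 probes. With the stage 35 signal as given, over all 119, the median difference was 2.43, and the count at least 2-fold higher was 95 in place of 80, and 20 in place of 11 for ranks 151 to 200. Spike-in scaling moved the median difference of all probes to 0.15, against -0.06 with the 75th percentile. The median limit of the other probes stayed above 0 under each of these settings. No paired analysis was possible because every stage is a single array without replicates. Signal near background limits every fold against an earlier stage.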

Other observations

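Of the 200 members, 85 (42.5%) carry accessions that begin with BC, the prefix of full-length cDNA clones, against 30.6% of all 43803 probes (13410).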
